A study of Mus musculus with 17 samples.

Results

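Pressure overload without drug treatment was examined in 8 of the 17 left ventricular RNA-sequencing libraries of the series. The libraries were chosen by their titles: 3 (S2, S12 and S16) came from mice with transverse aortic constriction that received saline (TAC Veh), and 5 (S5, S6, S13, S19 and S20) from sham-operated mice that received saline (Sham Veh). All mice were male C57Bl6/J aged 7 to 8 weeks at surgery, with no altered gene, and hearts were taken 3 weeks after surgery. In sham mice the chest was opened but the aorta was not tied, and both groups had been given saline by gavage over the last 2 of the 3 weeks. The remaining 9 libraries, 6 TAC 29P and 3 Sham 29P, came from mice given 29P, an αvβ3-specific RGD-mimetic, at 50 μg/kg on the same schedule. These libraries enter here only through the filter on low values, the scaling factors, the shared estimate of the spread and a comparison of changes. The tissue is the apex of the left ventricle in bulk, so fewer cells of a type and less RNA per cell cannot be told apart. Before deposit the authors had set aside further libraries, among them a TAC Veh library that lay with the sham libraries in a principal component analysis. The spread within TAC Veh, the size of the changes and the group separation are therefore those of libraries kept after such a selection. How far the library set aside would have altered them was not tested. P-values measure the spread between the libraries that were kept.

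Transverse aortic constriction narrows the aorta above the heart and raises the pressure against which the left ventricle must pump. Cardiac muscle is known to respond by enlarging its myocytes, by switching on contractile and hormone genes of the fetal heart, and by laying down collagen between the myocytes through activated fibroblasts. The adult ventricle draws most of its ATP from oxidation of fatty acids in mitochondria, and genes of that pathway are known to fall in the overloaded heart. Values are CPM as deposited, the reads of a gene relative to all reads of its library, and when the libraries of a gene are listed they follow the order S2, S12, S16 for TAC Veh and S5, S6, S13, S19, S20 for Sham Veh. A log2 fold change is TAC Veh minus Sham Veh on the log2(CPM + 0.1) scale, which understates the change of genes with low values. A gene is called higher or lower when its adjusted limma p is 0.05 or less in the same direction with CPM and again with CPM divided by TMM factors, which centre the libraries on the bulk of their genes.

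The libraries did not fall into 2 uniform groups. Estimated depth was 18.8 to 23.8 M reads. TMM factors were 1.21, 1.10 and 1.09 in TAC Veh and 0.96, 0.79, 0.95, 0.84 and 0.96 in Sham Veh, so that every TAC Veh library lay above every Sham Veh library. S6 had the most genes listed at 0 among the 8 (2729 of 21798), and S2 the fewest (1395). Markers of ventricular myocytes were abundant in all 8, with the 9 cardiomyocyte markers at 3.72 to 4.98% of all CPM. Transcripts that mark the atrium set S19 and S20 apart. The light chain Myl7 was at 895 and 723 CPM in S19 and S20, at 0.761 CPM or less in the other 6 libraries, and listed at 0 in S2 and S16. Sarcolipin (Sln), the atrial regulator of the calcium pump, was at 441 and 332 CPM in S19 and S20 and listed at 0 in all 3 TAC Veh libraries, in S5 and in S13. The 7 atrium markers together made up 0.635 and 0.526% of CPM in S19 and S20, against 0.0191, 0.0309 and 0.0196% in S5, S6 and S13. In TAC Veh they reached 0.450, 0.212 and 0.223%, nearly all of it Nppa, the most abundant of the 7, which the loaded ventricle is known to express as well. Bmp10, another atrium marker, did not pass the filter on low values. S20 also held more of the 5 adipocyte markers (0.00177% of CPM, with Cfd the most abundant) than any other library of the 8.

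A further feature separated the sham libraries. Genes with less than 1000 bases of exon were high in S19, S6 and S20 relative to genes with more than 4000 bases. The difference of the medians (log2, TMM-scaled, each gene relative to its mean over the 8 libraries) was 0.37, 0.31 and 0.23 in these libraries and −0.15 and −0.11 in S5 and S13. In TAC Veh it was −0.21, −0.30 and −0.12, close to S5 and S13. Of the 1230 short genes 4.63% were called lower and 0.65% higher after TAC, and of the 8004 long genes 1.22% and 5.96%. The part of transcript length in the calls was not tested, and counts for most lists with calls are therefore also given without S19 and S20, or without S6, S19 and S20, which leaves S5 and S13 as the shams.

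Across 16218 genes with at least 0.5 CPM in 3 or more of the 17 libraries, 722 were called higher (4.45%) and 319 lower (1.97%) after TAC. The size of the changes depended on the scale. With CPM, 516 of the higher genes had risen at least 2-fold and 81 at least 4-fold, and 88 and 14 of the lower genes had fallen that far, against 279 and 58 higher and 156 and 23 lower genes with TMM. The median log2 fold change was 1.19 among the higher genes and −0.67 among the lower ones with CPM, and 0.87 and −0.99 with TMM. Scaling mattered for genes that moved little. With CPM alone the median gene moved by 0.34 and 23.6% of genes were called higher and 1.98% lower, whereas with TMM alone the median was 0.01 and the shares were 4.45% and 5.7%. In the same way 27.6% of all genes had every TAC Veh library above every Sham Veh library in CPM, and 2.23% had every one below, so that separation in CPM alone is common for an upward change. Leaving out S19 and S20 lowered the counts and turned no direction. Without them 510 genes were called higher (3.14%) and 147 lower (0.906%), of which 402 and 130 were also called with all libraries, and all 722 and 319 genes kept their direction on both scales. With S6 left out as well, 165 (1.02%) and 61 (0.376%) were called, 152 and 54 of them shared with the full set, and again every gene kept its direction. The counts leaned on single libraries. Without TAC Veh S2 they fell to 151 higher and 45 lower, without S16 to 340 and 143, and without Sham Veh S6 to 478 and 248. S2 was the highest of the 3 TAC Veh libraries in CPM for 78.7% of the 722 higher genes (448 genes after TMM scaling), and for 408 S6 was the lowest of the 5 sham libraries (270 after TMM scaling). The numbers in the library descriptions fall in 4 runs, 2 of which hold both groups. All 722 higher and all 319 lower genes had the same sign in the run of S2, S5 and S6, and 721 and 317 in the run of S12 and S13. The calls were made on these same libraries, so that the signs within runs are a description and no separate support.

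**Figure D1:**
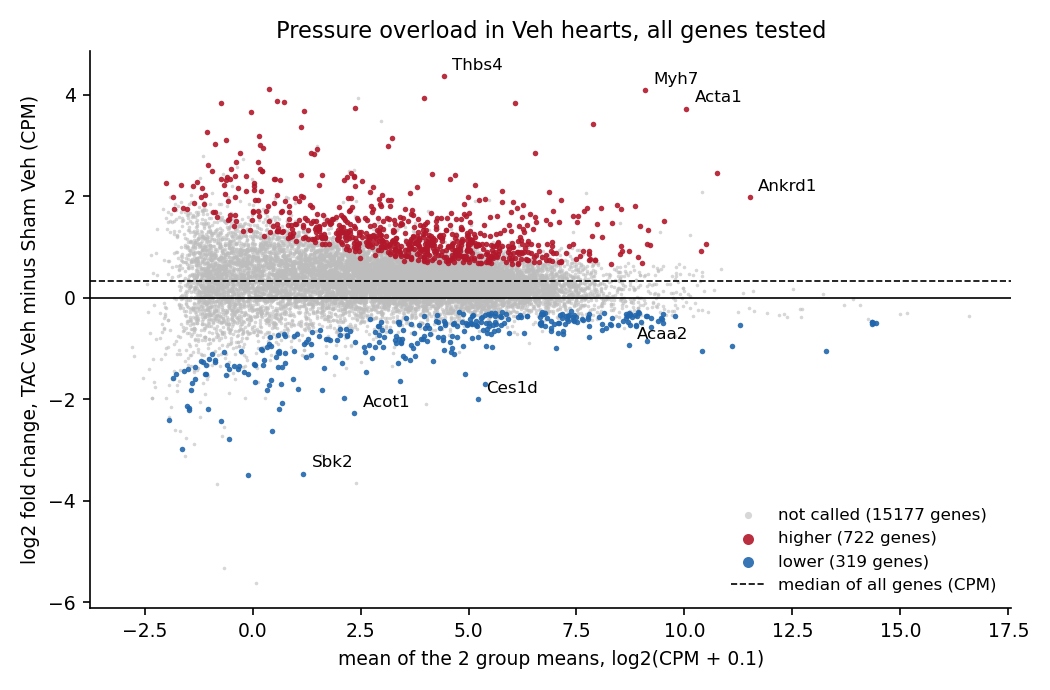
Log2 fold change of every gene tested (TAC Veh minus Sham Veh, CPM) against the mean of the 2 group means in log2(CPM + 0.1), with called genes in red (722 higher) and blue (319 lower). The dashed line is the median of all genes at 0.34, and on this scale 516 of the red and 88 of the blue genes changed at least 2-fold.

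A few hormone and contractile genes of the fetal heart rose strongly, and Myh7 and Acta1 were among the 12 largest rises named by rule. Myh7, the slow β-myosin heavy chain, was at 3292, 2065 and 1678 CPM in TAC Veh and at 151, 104, 131, 188 and 106 CPM in Sham Veh. The groups were far apart, with the log2 mean at 11.14 ± 0.50 (SD, n = 3) against 7.05 ± 0.36 (SD, n = 5), a log2 fold change of 4.08 (standard error, SE, 0.33, limma adjusted p = 5.16e-06 with CPM and 6.79e-06 with TMM). Myh7 lies on chromosome 14 of mm10 from 54970684 to 54994626, and its exons overlap those of Mhrt, Gm29015 and Gm31251 on the other strand, whose reads cannot be told apart from its own where counting ignored strand. Acta1, the skeletal α-actin that the fetal heart also uses, lies on chromosome 8 from 123891769 to 123894751. It was at 5763, 3521 and 2759 CPM after TAC and at 256, 161, 369, 473 and 286 CPM in sham hearts, a log2 fold change of 3.72 (SE 0.38, limma adjusted p = 4.42e-05). Brain natriuretic peptide (Nppb, chromosome 4, 147985788 to 147987205) was at 883, 611 and 1189 CPM against 202, 205, 215, 447 and 226 CPM, so the groups did not overlap. Its log2 fold change was 1.81 (SE 0.26, limma adjusted p = 0.000674), and the highest sham value was that of S19. For each of these genes the exact two-sided permutation p was 0.0179, the smallest that the 56 divisions of 3 against 5 libraries allow.

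Atrial natriuretic peptide (Nppa) was high in the TAC Veh libraries and in the sham libraries with atrial transcripts. It was at 4498, 2121 and 2224 CPM in TAC Veh and at 187, 304 and 191 CPM in sham S5, S6 and S13, but at 3670 and 3102 CPM in S19 and S20. With all libraries its log2 fold change of 2.07 was not past the threshold (SE 0.84, limma adjusted p = 0.0723). Without S19 and S20 it was 3.64 and Nppa was called higher on both scales. The remaining members of the 8 natriuretic genes moved little. Corin, the protease that cuts pro-ANP to its active form, fell by 0.59 on the log2 scale (limma adjusted p = 0.0205), and without S19 and S20 it had −0.51 and was not called. The receptors Npr1, Npr2 and Npr3 were not called. Among the 9 tested fetal contractile genes, Myh7, Acta1 and the non-muscle α-actinin Actn1 (log2 fold change 1.05) rose and slow troponin T (Tnnt1, −0.73) fell. These counts stand against 4.45% of all genes higher and 1.97% lower. Tnnt1 had −0.67 and no call without S19 and S20, and Actn1 had 1.13 and no call with S5 and S13 as the only shams. The atrial light chains Myl4 and Myl7 had negative values (−3.66 and −5.61) that rested on S19 and S20 and were not called.

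Because Myh7, Acta1, Nppb and the stretch gene Ankrd1 rose together, their RefSeq promoter windows (GRCm38.p6, 250 bases before to 50 after the annotated start) are printed here on the strand of each gene. They were searched on both strands for CATTCC, the core letters of the M-CAT element known from muscle promoters. Matches are in capitals, CATTCC on the printed strand and GGAATG for the other strand. The windows are chr4:147985650-147985949 (plus strand) for Nppb, chr8:123894726-123895025 (minus) for Acta1, chr14:54994577-54994876 (minus) for Myh7 and chr19:36119795-36120094 (minus) for Ankrd1.
Nppb: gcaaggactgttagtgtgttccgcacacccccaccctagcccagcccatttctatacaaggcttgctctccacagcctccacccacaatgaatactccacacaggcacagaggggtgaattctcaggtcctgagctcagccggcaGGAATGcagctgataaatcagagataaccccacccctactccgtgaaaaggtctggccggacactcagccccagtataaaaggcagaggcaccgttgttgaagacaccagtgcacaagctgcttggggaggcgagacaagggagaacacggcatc
Acta1: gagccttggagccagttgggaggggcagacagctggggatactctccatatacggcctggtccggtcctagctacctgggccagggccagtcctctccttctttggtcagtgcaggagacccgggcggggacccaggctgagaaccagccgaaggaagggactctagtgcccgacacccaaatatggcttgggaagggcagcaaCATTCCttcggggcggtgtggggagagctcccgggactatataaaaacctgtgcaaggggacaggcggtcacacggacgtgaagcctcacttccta
Myh7: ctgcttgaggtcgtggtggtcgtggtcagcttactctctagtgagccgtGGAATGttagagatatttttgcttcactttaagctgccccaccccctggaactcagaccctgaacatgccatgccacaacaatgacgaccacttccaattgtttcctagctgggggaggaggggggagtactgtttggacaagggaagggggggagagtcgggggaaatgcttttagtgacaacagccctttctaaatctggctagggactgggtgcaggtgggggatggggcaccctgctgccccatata
Ankrd1: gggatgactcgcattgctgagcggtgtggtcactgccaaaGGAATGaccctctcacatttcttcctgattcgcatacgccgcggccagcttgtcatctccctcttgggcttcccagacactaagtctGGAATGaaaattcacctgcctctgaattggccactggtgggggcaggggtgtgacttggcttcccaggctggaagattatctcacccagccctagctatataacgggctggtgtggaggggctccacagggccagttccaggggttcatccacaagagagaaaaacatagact

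The match lay 46 bases before the start in Acta1, 105 before it in Nppb and 201 before it in Myh7, and at 210 and 123 bases before it in Ankrd1. Positions are relative to the RefSeq start, which for Nppb and Ankrd1 lies inside the gene as the annotation used for the other coordinates draws it, so that the match in Nppb and both in Ankrd1 fall after that annotation's start. The genes were picked knowing that they rose, and the letters are common: 14.7% of all 32851 windows in the table hold them. Of the tested genes with a window (11297) 14.9% had a match in any of their windows, of those called higher 20.9% (115 of 549) and of those called lower 16.8% (34 of 202). Nppa, Xirp2 and Actn1, which have 1 window each, had none, and Myh6, which was not called, had a match. Myh7 has 2 windows, of which the 1 with a match is printed. A match describes the letters in a window and is not a binding site.

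Several genes for proteins of the myocyte that respond to stretch rose. Of 18 tested members 8 were called higher and none lower, against 4.45% and 1.97% of all genes, and the median log2 fold change was 0.71 against 0.34 over all genes tested (0.38 against 0.01 with TMM). Xirp2, an actin-binding protein of the intercalated disc, was at 5914, 3180 and 3544 CPM in TAC Veh and at 981, 640, 649, 951 and 587 CPM in Sham Veh. All 3 overloaded hearts exceeded the highest sham more than 3-fold, and the log2 fold change was 2.45 (SE 0.25, limma adjusted p = 4.42e-05). The study had singled out Xirp2 on these same libraries. Ankrd1, which binds titin and is also found in the nucleus, lies on chromosome 19 from 36111961 to 36120099. Its values were 7479, 4793 and 5479 CPM against 1447, 1381, 1466, 2185 and 1107 CPM, and the log2 fold change was 1.97 (SE 0.23, limma adjusted p = 0.000138). Synpo2l rose by 1.75, the LIM-domain protein Fhl1 by 1.6 and the intermediate filament protein desmin (Des) by 1.05. Ankrd23, Flnc and Nrap completed the higher members, while Csrp3, Tcap, Cryab and Hspb1 were not called. Together the list took 2.81, 1.95 and 2.14% of CPM in TAC Veh and 0.934 to 1.17% in Sham Veh (exact permutation p = 0.0179, adjusted over 47 lists 0.0600). With S5 and S13 as the only shams, 4 members remained called, namely Xirp2, Ankrd1, Synpo2l and Fhl1.

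**Figure D2:**
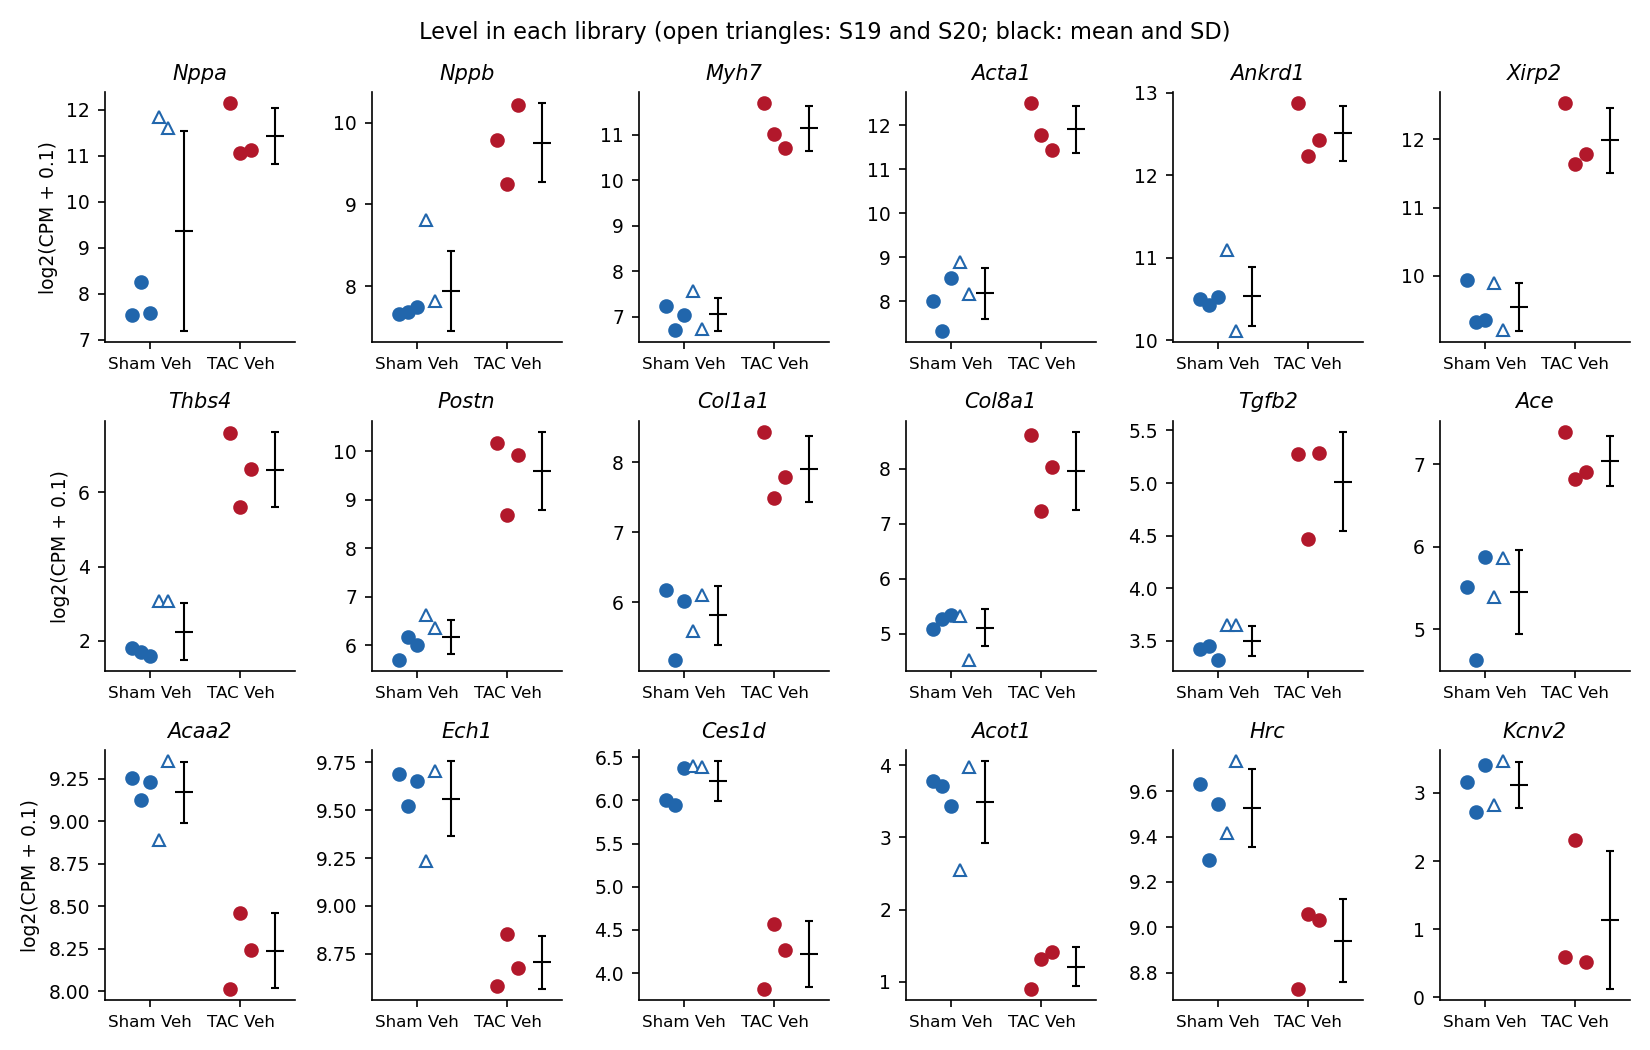
Level of 18 genes in each library as log2(CPM + 0.1), Sham Veh in blue and TAC Veh in red, with the sham libraries S19 and S20 as open triangles and the mean and SD of each group in black. Nppa overlaps between groups through S19 and S20 alone, and the other 17 genes do not overlap.

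Few contractile genes of the adult heart were called on both scales. Myh6, the α-myosin heavy chain, was at 10928, 13253 and 13946 CPM in TAC Veh and at 10019 to 18041 CPM in Sham Veh, so the groups overlapped fully (log2 fold change −0.15, SE 0.22, limma adjusted p = 0.607). Of the 14 adult contractile genes 4 were higher with CPM alone, against 23.6% of all genes, and 5 lower with TMM alone, against 5.7%. None was called higher on both scales, and cardiac troponin I (Tnni3, −0.54) was called lower, which without S19 and S20 had −0.51 and was not called. Cardiac actin (Actc1) had 0.17 with CPM and −0.16 with TMM, and was not called. In the calcium cycling list 1 of 18 members was called lower and none higher, against 1.97% and 4.45% of all genes. With TMM alone 6 were lower, against 5.7%. The called member was Hrc, a calcium-binding protein of the sarcoplasmic reticulum, with 424, 533 and 523 CPM against 794, 629, 746, 684 and 850 CPM. Its log2 fold change was −0.59 (SE 0.13, limma adjusted p = 0.00693), and it was called in both smaller sets as well. The calcium pump Atp2a2 was at 5363, 6234 and 5758 CPM in TAC Veh and at 5829 to 9194 CPM in Sham Veh. It reached the threshold with TMM (−0.72, limma adjusted p = 0.0114) but not with CPM (−0.39, limma adjusted p = 0.0678), and its inhibitor phospholamban (Pln, −0.35) likewise passed with TMM alone.

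Of 19 potassium channel genes 3 were called lower and none higher, against 1.97% and 4.45% of all genes. Kcnv2, a silent subunit that modifies Kv2 channels, was at 1.40, 4.84 and 1.33 CPM in TAC Veh and at 8.88, 6.49, 10.6, 6.97 and 10.9 CPM in Sham Veh. The groups did not overlap and the log2 fold change was −1.98 (SE 0.35, limma adjusted p = 0.00173), with a call in both smaller sets. Kcnj3 (−1.71) and Kcnj5 (−0.72) encode the muscarinic potassium channel, which is known to be abundant in the atrium. The study had singled out Kcnj5 on these same libraries. Kcnj3 was at 158 and 115 CPM in S19 and S20 against 48.0, 49.6 and 55.6 CPM in the other shams. Their values were −1.15 and −0.49 without these libraries, and neither was called. Kcnv2 was the 1 member of the list called with S5 and S13 as the only shams. The transient outward channel genes Kcnd2 (−0.60) and Kcnip2 (−0.17) were not called.

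Many genes of the collagen matrix rose. Of 22 tested fibrillar collagens and processing enzymes 14 were called higher and none lower, against 4.45% and 1.97% of all genes, and the median log2 fold change was 1.51 against 0.34. Col1a1, the main chain of type I collagen, was at 343, 180 and 220 CPM in TAC Veh and at 72.0, 36.2, 64.7, 48.2 and 68.8 CPM in Sham Veh. Every overloaded heart was more than 2-fold above every sham, and the log2 fold change was 2.08 (SE 0.36, limma adjusted p = 0.00159). Col3a1 was at 840, 488 and 758 CPM against 148 to 240 CPM (log2 fold change 1.74). Enzymes that cross-link collagen rose with it: Lox by 2.17, Loxl4 by 2.10, and Loxl1, Loxl2 and Loxl3 by 1.43 to 1.92. The prolyl hydroxylases P4ha1, P4ha2 and P4ha3 and the chaperone Serpinh1 were not called. The list took 0.324, 0.184 and 0.272% of CPM in TAC Veh and 0.0730 to 0.112% in Sham Veh, where S6 was lowest (exact permutation p = 0.0179, adjusted over 47 lists 0.0600). Without S19 and S20 13 members were called, and with S5 and S13 as the only shams 7 were, the median hardly moving with TMM (1.19 with all shams and 1.15 with S5 and S13).

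Among 32 matricellular and matrix proteins 17 rose and none fell, against 4.45% and 1.97% of all genes (median log2 fold change 1.82 against 0.34). Postn and Ccn5 among them are genes the study singled out on these same libraries. Thbs4 (thrombospondin 4, chromosome 13, 92751590 to 92794818) changed most of all genes named by rule. Its values were 196, 48.6 and 98.2 CPM in TAC Veh and 3.41, 3.13, 2.90, 8.36 and 8.34 CPM in Sham Veh. Its log2 mean was 6.61 ± 1.0 (SD, n = 3) against 2.25 ± 0.76 (SD, n = 5), a log2 fold change of 4.36 (SE 0.71, limma adjusted p = 0.00125), and among the shams S19 and S20 were highest. Ltbp2, a microfibril protein whose exons overlap D030025P21Rik on the other strand, was at 101, 34.8 and 64.9 CPM against 2.77, 3.80, 2.76, 4.38 and 7.04 CPM (log2 fold change 3.94). Cilp, a protein of the fibroblast matrix, lies on chromosome 9 from 65265180 to 65280605. It was at 386, 164 and 260 CPM against 15.4 to 20.2 CPM (log2 fold change 3.84, limma adjusted p = 0.000138), the shams being tightly grouped. Periostin (Postn, chromosome 3, 54361109 to 54391037), a protein of activated fibroblasts, was at 1153, 411 and 970 CPM against 51.8, 71.3, 63.6, 98.8 and 81.5 CPM. Its log2 fold change was 3.43 (SE 0.42, limma adjusted p = 0.000244). Fibronectin (Fn1) rose by 1.82 and Sparc by 1.51. Without S19 and S20 23 members were called, and with S5 and S13 as the only shams 12 were. Connective tissue growth factor (Ccn2) was at 442, 235 and 750 CPM against 43.4, 49.7 and 78.2 CPM in S5, S6 and S13, but at 266 and 253 CPM in S19 and S20. It was not called with all libraries (2.06, limma adjusted p = 0.0285 with CPM and 0.0906 with TMM) and was called without S19 and S20 (2.95).

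The basement membrane, the sheet of type IV collagen and laminin around each myocyte and capillary, changed by less per gene. Of 24 members 16 rose and none fell, against 4.45% and 1.97% of all genes, and their median was 0.89 on the log2 scale against 0.34. Col8a1, Col4a3, Col4a4 and Nid1 among them are genes the study singled out on these same libraries. Col8a1, a short-chain collagen, was at 394, 149 and 262 CPM in TAC Veh and at 33.9, 38.5, 40.2, 39.9 and 22.9 CPM in Sham Veh, a log2 fold change of 2.85 (SE 0.31, limma adjusted p = 6.20e-05), and its partner Col8a2 rose by 3.36 from a low level. Col4a3 rose by 2.01 and Col4a1 by 1.42, the latter sharing exon bases with Col4a2 on the other strand. With S19 and S20 left out 11 members were called, and with S5 and S13 as the only shams 4 were, Col8a1 and Col4a3 among them. Of 17 matrix proteases and inhibitors 3 rose: Adamtsl2 (2.33), Mmp23 (1.80) and the gelatinase Mmp2 (1.43). The count was 6 without S19 and S20 and 2 with S5 and S13 as the only shams. Timp1 was at 32.8, 3.72 and 14.1 CPM against 0.903 to 6.70 CPM, where S19 was highest, and was called without S19 and S20 only (3.14, against 2.51 with all libraries). Timp3 (0.35) was not called.

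Integrins anchor cells to this matrix. Of 20 tested chains 4 rose and none fell, against 4.45% and 1.97% of all genes, and 10 were higher with CPM alone, against 23.6%. These were the collagen-receptor chain Itga11 (1.62), Itga9 (1.36), Itgb5 (1.05), which pairs with αv, and the fibronectin-receptor chain Itga5 (0.99). Itga9 was at 143, 107 and 120 CPM in TAC Veh and at 70.3, 35.3, 51.7, 46.6 and 41.2 CPM in Sham Veh (limma adjusted p = 0.000349), and was the integrin still called with S5 and S13 as the only shams. Both chains of αvβ3 were not called. Itgav was at 40.3, 28.9 and 45.4 CPM against 24.6, 21.4, 24.1, 29.5 and 27.3 CPM, and its log2 fold change of 0.57 lay near the shift of the median gene (limma adjusted p = 0.0247 with CPM and 0.398 with TMM). Itgb3 was at 4.54, 3.72 and 7.36 CPM against 1.89, 2.01, 3.52, 3.49 and 5.10 CPM, with overlap through S20, and had 0.72 (SE 0.46, limma adjusted p = 0.233). Itgb1, the common β chain, was called with CPM (0.50) but not with TMM (0.17).

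TGF-β is known to drive matrix production in fibroblasts, and the genes listed for its family, which are ligands, receptors, Smads and regulators, rose in part. Of 35 tested members 10 were called higher and none lower, against 4.45% and 1.97% of all genes. The median log2 fold change was 0.67 against 0.34 over all genes, and 0.34 against 0.01 with TMM. With S5 and S13 as the only shams 6 were called. Tgfb2 was at 38.7, 22.0 and 39.0 CPM in TAC Veh and at 10.6, 10.9, 9.89, 12.5 and 12.4 CPM in Sham Veh (log2 fold change 1.51, SE 0.25, limma adjusted p = 0.00125). Gdf15, a stress-induced cytokine, rose by 2.93 and Gdf6 by 2.83, both from about 1 CPM, and the secreted glycoprotein Fstl1 by 1.76. Of 13 genes of fibroblast activation 8 rose, and 5 of those (Cthrc1, Cilp, Postn, Fn1 and Tnc) also stand in the matrix list. With S5 and S13 as the only shams 3 were called. Cthrc1, a marker of matrix-forming fibroblasts, was at 5.19, 1.86 and 3.95 CPM against 0.0422, 0.0449, 0.238, 0.402 and 0.350 CPM. Its log2 fold change was 3.66 (limma adjusted p = 0.00991), and sham values below 0.5 CPM leave its size uncertain. It was not called with S5 and S13 as the only shams. The general fibroblast markers moved less. Col15a1 rose by 1.71 and the other 5 of the 6 were not called, the summed level being 0.245, 0.197 and 0.211% of CPM in TAC Veh and 0.126, 0.113, 0.151, 0.175 and 0.217% in Sham Veh. Gsn was the most abundant of these markers, and the part of fibroblast number in the matrix changes was not tested.

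**Figure D3:**
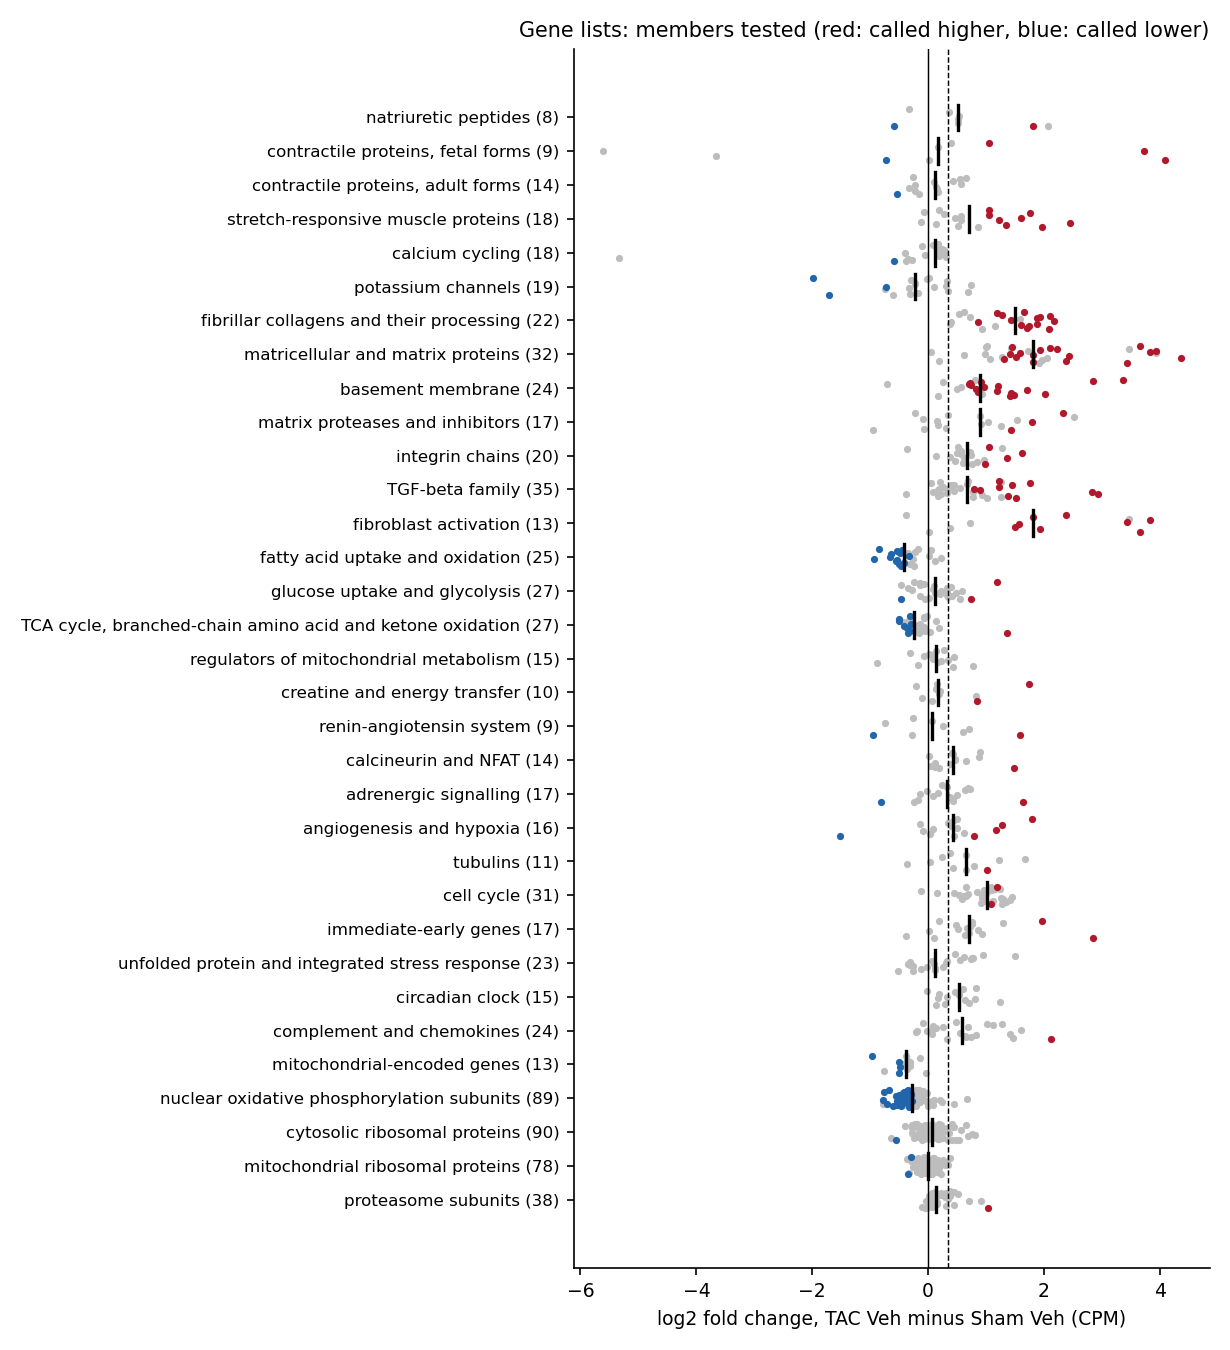
Log2 fold change (TAC Veh minus Sham Veh, CPM) of the tested members of 33 gene lists, with the number tested in brackets, called members in red or blue, the list's median as a black bar and the median of all genes (0.34) as a dashed line. Matrix lists lie to the right of it, and fatty acid oxidation, mitochondrial-encoded genes and oxidative phosphorylation subunits to the left.

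Many genes of fatty acid oxidation fell. Of 25 tested genes of fatty acid uptake and oxidation 13 were called lower and none higher, against 1.97% and 4.45% of all genes, and the median log2 fold change was −0.41 with CPM and −0.74 with TMM. Several of them, among them Acaa2, Eci1, Hadh, Decr1 and Etfdh, are genes the study singled out on these same libraries, so the list is not independent evidence of a direction. Acaa2, the mitochondrial thiolase of the last step of the spiral, was at 259, 352 and 303 CPM in TAC Veh and at 611, 557, 600, 474 and 654 CPM in Sham Veh. The groups did not overlap even through S19, the lowest sham, and the log2 fold change was −0.93 (SE 0.16, limma adjusted p = 0.00159 with CPM and 0.000206 with TMM). Ech1, an isomerase for unsaturated fatty acids, was at 384, 463 and 409 CPM against 825, 734, 805, 603 and 833.3 CPM (log2 fold change −0.86, limma adjusted p = 0.00328). Eci1 fell by 0.65 on the log2 scale. The medium-chain dehydrogenase Acadm was at 534, 706 and 590 CPM against 969, 830, 873, 729 and 900 CPM (−0.50, limma adjusted p = 0.00755). Both subunits of the trifunctional protein (Hadha and Hadhb) and the electron-transfer genes Etfa, Etfb and Etfdh were among the lower members, Hadh and Hadha with a small overlap between groups. Slc25a20, the carrier that brings acylcarnitines into the mitochondrion, fell as well (−0.47). Cpt1b, the muscle carnitine palmitoyltransferase, was at 300, 340 and 281 CPM against 243 to 367 CPM, with a log2 fold change of 0.01 with CPM and −0.32 with TMM, and was not called. Lpl (−0.31), the lipoprotein lipase gene, overlapped between groups and was not called. Without S19 and S20 again 13 members were called lower, and with S5 and S13 as the only shams 10 were. The summed share of the list was 1.17, 1.36 and 1.31% of CPM in TAC Veh and 1.35 to 1.74% in Sham Veh (exact permutation p = 0.0357, adjusted over 47 lists 0.0883).

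Some lipid and carbohydrate genes outside this list changed by more. Ces1d, a carboxylesterase that hydrolyses lipid esters, lies on chromosome 8 from 93166068 to 93197838. It was at 14.02, 23.7 and 19.3 CPM in TAC Veh and at 64.0, 61.3, 83.0, 84.5 and 83.4 CPM in Sham Veh, a log2 fold change of −2.0 (SE 0.18, limma adjusted p = 1.11e-05 with CPM and 6.79e-06 with TMM). Acot1, a cytosolic acyl-CoA thioesterase (chromosome 12, 84009490 to 84018371), was at 1.77, 2.40 and 2.56 CPM against 13.7, 12.95, 10.7, 5.74 and 15.7 CPM. Its log2 fold change was −2.28 (SE 0.37, limma adjusted p = 0.00125), and reads shared with its close paralogue Acot2 make its level uncertain. Pfkfb1 (−1.82), which sets the level of fructose 2,6-bisphosphate, Fbp2 (−1.29), the muscle fructose bisphosphatase, and Phkg1 (−1.65), a catalytic subunit of phosphorylase kinase, were also among the 12 largest falls. Phkg1 was at 26.7 and 28.5 CPM in S19 and S20 against 13.1 to 16.3 CPM in the other shams, had −1.28 without them, and was not called with S5 and S13 as the only shams. Glucose uptake and glycolysis changed on both scales in few members, 2 of 27 higher and 1 lower, shares not far from the 4.45% and 1.97% of all genes. With CPM alone 4 were higher (23.6% of all genes) and with TMM alone 8 were lower (5.7% of all genes). None of the 3 was called with S5 and S13 as the only shams. Pfkp, the platelet form of phosphofructokinase, rose by 1.19 (145, 73.7 and 128 CPM against 39.9 to 64.4 CPM), hexokinase 1 (Hk1) rose by 0.74, and Mpc2, a subunit of the mitochondrial pyruvate carrier, fell by 0.47. The glucose transporter Slc2a1 had 0.55 (limma adjusted p = 0.0512 with CPM and 0.419 with TMM). Pdk4, the kinase that inhibits pyruvate dehydrogenase, spanned 113 to 624 CPM within TAC Veh and 280 to 722 CPM within Sham Veh, and was not called.

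In the list of the citric acid cycle, branched-chain amino acids and ketone bodies 8 of 27 genes fell and 1 rose, against 1.97% and 4.45% of all genes. With TMM alone 20 were lower, against 5.7% of all genes, and the median log2 fold change was −0.58, against −0.25 with CPM. The riser was Bdh1, the ketone body dehydrogenase of mitochondria, at 151, 164 and 120 CPM in TAC Veh and at 74.7, 51.9, 59.8, 39.1 and 61.6 CPM in Sham Veh (log2 fold change 1.35, SE 0.19, limma adjusted p = 0.000457). It lies on chromosome 16 from 31422280 to 31458901 and shares exon bases with Gm15743 on the other strand. With CPM the called falls were small, from −0.50 for Mccc2, an enzyme of leucine breakdown, to −0.29 for Suclg2 (−0.83 and −0.62 with TMM). Without S19 and S20 4 of the falls were called, and with S5 and S13 as the only shams 1 was, that of Mccc2, while Bdh1 was called in both. None of 15 regulators of mitochondrial metabolism was called on both scales. Ppara had 0.44 and Ppargc1a −0.89 (limma adjusted p = 0.183), the latter with 176 and 369 CPM in S19 and S20 against 44.6 to 82.8 CPM in the other 6 libraries. Of 10 genes of creatine and energy transfer Nmrk2, a nicotinamide riboside kinase (1.74), and Slc6a8, the creatine transporter (0.84), rose. Their values were close to these without S19 and S20 (1.75 and 0.76), and neither was called.

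Genes of the respiratory chain were lower, in a number that depended on the scaling and on the libraries. Of 89 nuclear subunits of oxidative phosphorylation, taken by symbol and including a few copies such as Ndufs6b and Atp5pb-ps that can share reads with their parent genes, 32 were called lower and none higher, against 1.97% and 4.45% of all genes, and 72 were lower with TMM alone, against 5.7%. The median log2 fold change was −0.28 with CPM and −0.61 with TMM. Cox7a1, the muscle form of a subunit of cytochrome oxidase, was at 161, 168 and 177 CPM in TAC Veh and at 250, 343, 258, 295 and 304 CPM in Sham Veh (−0.77, SE 0.11, limma adjusted p = 0.00082). It was called in both smaller sets. Atp5k, a short subunit of ATP synthase (−0.71), was at 258, 227 and 207 CPM in S6, S19 and S20, at 142 and 133 CPM in S5 and S13, and at 112, 97.9 and 136 CPM in TAC Veh. The subunit genes are short, with a median of 1465 exon bases against 4032 over all genes with a length, and S6, S19 and S20 are the libraries in which short genes were high. Lengths were known for 85 of the 89. The count of lower members was 11 without S19 and S20 and 1 with S5 and S13 as the only shams, and the median with TMM was then −0.45. The part of transcript length in these falls was not tested. Fatty acid oxidation genes are longer, with a median of 3879 exon bases. The matrix lists that rose are longer still, with medians of 5822 (fibrillar collagens), 5194 (matricellular) and 7903 (basement membrane) exon bases. They hold no gene below 1000 bases, and the part of transcript length in their rises was not tested either.

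The 13 protein-coding genes of the mitochondrial genome took 23.6, 27.9 and 26.7% of CPM in TAC Veh and 32.0, 38.8, 32.6, 35.2 and 29.1% in Sham Veh. Every overloaded heart lay below every sham, with means of 26.1 ± 2.22% (SD, n = 3) and 33.5 ± 3.64% (SD, n = 5) (exact permutation p = 0.0357, adjusted over 47 lists 0.0883). mt-Co1, the most abundant, was at 78644, 93160 and 91587 CPM against 97061 to 130204 CPM and was not called (−0.36, limma adjusted p = 0.108). mt-Nd1, mt-Co2, mt-Co3 and mt-Nd3 were called lower (−0.50, −0.50, −0.49 and −0.96), and none of the 4 was called without S19 and S20, with values of −0.50, −0.48, −0.49 and −0.89 that had moved little. Since these genes hold a large part of all reads, a smaller share of them raises the CPM of all other genes, and nuclear copies such as Gm28661, Gm28437 and Gm10925 can share their reads. With totals that leave them out, 1723 genes were called higher and 519 lower.

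**Figure D4:**
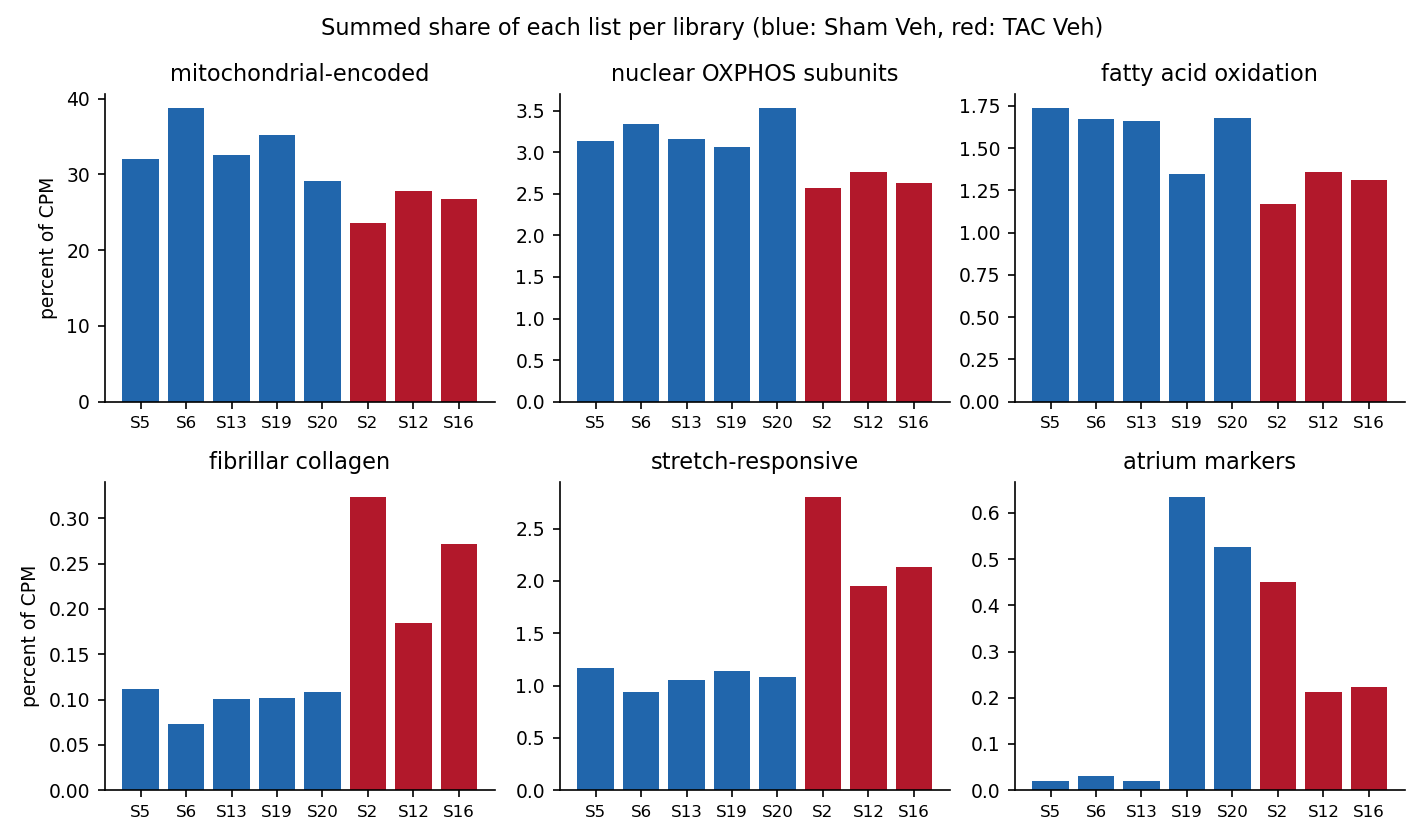
Summed percent of CPM of 6 gene lists in each of the 8 libraries, Sham Veh in blue and TAC Veh in red, with axes starting at 0. Mitochondrial-encoded genes, oxidative phosphorylation subunits, fibrillar collagen and stretch-responsive proteins separate the groups, S19 lies just below TAC Veh S12 for fatty acid oxidation, and the atrium markers are high in S19, S20 and the TAC Veh libraries.

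Signalling genes changed singly, and the counts of these lists stand against 4.45% of all genes higher and 1.97% lower. In the renin-angiotensin list 1 of 9 tested genes rose and 1 fell, both of them genes the study had picked. Angiotensin converting enzyme (Ace) was at 168, 113 and 120 CPM in TAC Veh and at 45.5, 24.6, 58.6, 41.9 and 58.1 CPM in Sham Veh (log2 fold change 1.59, limma adjusted p = 0.000988). Mme, the neprilysin that degrades natriuretic peptides, was at 3.49, 5.53 and 5.07 CPM against 12.5, 8.01, 9.89, 8.44 and 6.89 CPM (−0.94, limma adjusted p = 0.0078). Of 17 adrenergic genes the adenylyl cyclase Adcy7 rose (1.64, at 68.9, 37.3 and 54.9 CPM against 14.4 to 20.3 CPM) and the α1B receptor Adra1b fell (−0.82). The β1 receptor Adrb1 was not called. Of 14 calcineurin and NFAT genes Rcan1, a feedback inhibitor of calcineurin, was called higher (1.48), although S5 at 138 CPM lay above TAC Veh S12 at 116 CPM, and it was not called without S19 and S20 on the TMM scale (1.65, limma adjusted p = 0.058). In the list of 16 angiogenesis and hypoxia genes 4 were called higher (Esm1, Sulf1, Amot and Hif1a) and Angpt1, the ligand of Tie2, lower (−1.51), and Sulf1, Amot and Hif1a are again genes picked by the study on these libraries. Angpt1 was at 106 and 82.0 CPM in S19 and S20 against 29.5 to 38.9 CPM in the other shams and was not called without them (−0.94), and Sulf1 was then the 1 member called.

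Immediate-early, growth and stress lists had few members called on both scales, and the counts of these lists stand against 4.45% of all genes higher and 1.97% lower. Of 17 immediate-early genes the transcription factors Egr2 (2.84, at 3.84, 9.05 and 8.69 CPM against 0.421 to 1.52 CPM) and Egr3 (1.96) rose, and neither was called with S5 and S13 as the only shams. The 31 cell cycle genes had a median log2 fold change of 1.02 against 0.34 over all genes, and 0.71 against 0.01 with TMM. Positive values were found in 30 of them with CPM and in 29 with TMM, against 81.2% and 51.2% of all genes. With CPM alone 17 were called higher, where 23.6% of all genes were. On both scales, where 4.45% of all genes were higher, 2 were (Rrm2, 1.18, and Nusap1, 1.09), with 1.15 and 0.96 and no call without S19 and S20. Of 11 tubulins Tubb2a rose (1.01), and it was not called with S5 and S13 as the only shams. None of 23 genes of the unfolded protein and integrated stress responses and none of 15 clock genes was called on both scales. By CPM alone 3 and 1 of them were higher, against 23.6% of all genes. Of 24 complement and chemokine genes the interferon-induced chemokine Cxcl10 rose (2.12), and it had 1.69 and no call without S19 and S20. Among 90 cytosolic ribosomal protein genes 1 was called lower, against 1.97% of all genes, namely Rpl3l (−0.55), the striated-muscle paralogue of Rpl3. It was at 86.6, 114 and 75.4 CPM in TAC Veh and at 147, 112, 159, 104 and 155 CPM in Sham Veh, the groups overlapping through S12, and without S19 and S20 it had −0.60 and was not called. Rpl3 itself had 0.69 (limma adjusted p = 0.0264 with CPM and 0.204 with TMM). Of 78 mitochondrial ribosomal proteins 2 (Mrpl42 and Mrps35) fell on both scales, against 1.97% of all genes, and 29 with TMM alone, against 5.7%. From the 38 proteasome subunits 1 was called higher, against 4.45% of all genes, namely Psmb10 (1.03), a catalytic subunit of the immunoproteasome. None of these 3 was called without S19 and S20 (−0.29, −0.29 and 0.94).

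Markers of other cell types were at low levels and moved in part with the groups. The 7 macrophage markers, of which C1qb was the most abundant, summed to 0.0431, 0.0268 and 0.0316% of CPM in TAC Veh and to 0.0141 to 0.01998% in Sham Veh (exact permutation p = 0.0179, adjusted over 47 lists 0.0600). All 7 were higher with CPM, as were 23.6% of all genes. On both scales 2 of them were, C1qb (1.01) and Adgre1 (1.14), against 4.45% of all genes. Adgre1 was not called without S19 and S20 (1.04), and neither was called with S5 and S13 as the only shams. The 5 red blood cell markers summed to 0.499, 0.308 and 0.333% in TAC Veh and 0.102 to 0.246% in Sham Veh, with Hbb-bs the most abundant, and all 5 were higher with CPM and none with TMM. None of 8 endothelial markers was called on both scales, and of 6 pericyte and smooth muscle markers Pdgfrb was (1.06), though not without S19 and S20 (0.85). Neutrophil, adipocyte, Schwann cell, mesothelium and skeletal muscle markers were at 0.00177% of CPM or less in every library, and the 4 ventricle markers were not called. The part of these cells in the gene changes was not tested.

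The library reagents kept the strand of the RNA, but whether strand was used in counting is not given in the sources used here. Besides Myh7, Ltbp2, Bdh1 and Col4a1, the exons of many other named genes overlap a gene on the other strand. These include Nppa, Corin, Actn1, Myl4, Myh6, Xirp2, Des, Atp2a2, Pln, Kcnj3, Lox, Fn1, Ccn2, Col4a3, Timp3, Itgav, Tgfb2, Ace, Hk1, Pfkp, Slc2a1, Pfkfb1, Phkg1, Nmrk2, Angpt1, Cxcl10, Nusap1, mt-Co1 and Atp6v0a4, so that their levels may hold reads of both if it was not.

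Other genes with the largest changes fall outside the lists. By rule, the 12 largest rises and falls were taken among genes called on both scales whose groups did not overlap and whose higher group had a mean of at least 5 CPM, from 563 and 141 candidates. A further 15 and 42 genes with provisional names (Gm or Rik symbols and pseudogenes) were set aside. Besides the genes above, the rises included those of Frem1, an extracellular matrix protein of the basement membrane zone, Col12a1, Serpinb1c and Atp6v0a4. Frem1 was at 7.63, 5.04 and 3.89 CPM in TAC Veh, at 0.134 to 0.713 CPM in 4 sham libraries and listed at 0 in S6 (log2 fold change 4.11, limma adjusted p = 0.00082). Col12a1, a collagen that decorates fibrils, was at 34.2, 10.03 and 19.6 CPM against 0.671 to 2.06 CPM (3.73). Serpinb1c (3.87), whose reads may be split with near copies of the family, and Atp6v0a4 (3.85), a subunit of the proton pump, lay between 2.94 and 13.4 CPM after TAC. These 4 genes were called in both smaller sets. Among the falls Sbk2 headed the list (−3.47). It is a kinase gene among the atrium markers, the 1 of 6 tested that was called, was at 39.4 and 38.1 CPM in S19 and S20 and at 1.39 to 3.23 CPM in the other shams, and lost its call without them (−1.89). Hnmt (−1.46), which inactivates histamine, Lgals4 (−1.25) and the phospholipase Pla2g5 (−1.23) fell as well and were called in both smaller sets.

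The change after TAC was compared with that in the 29P pair, which shares no library with it. The 3 Sham 29P libraries of that pair include S14, with 14.2 M reads, 3538 genes listed at 0 and a TMM factor of 0.76. These were the lowest depth, the most genes at 0 and the lowest factor of the 17 libraries. The part of S14 in the 29P changes was not tested. In the 29P pair 955 genes were called higher and 187 lower, of which 392 and 102 were also called in Veh mice, that is 54.3% and 32.0% of the Veh calls and 41.0% and 54.5% of the 29P calls. No gene was called in opposite directions. Of the Veh calls 721 of 722 higher genes were positive and 291 of 319 lower genes negative in the 29P pair with CPM, where 83.8% of all genes were positive. With TMM, where 50.6% were, these counts were 710 and 314. A direct test of the difference between the 2 changes passed for 0 genes on either scale (limma, lowest adjusted p = 0.993), with 463 genes at an unadjusted p of 0.05 or less with CPM (2.85% of those tested) and 3.5% of genes with TMM. Among fetal and matrix genes the values side by side were near each other for some: Myh7 4.08 in Veh and 3.55 in 29P mice, Acta1 3.72 and 3.75, Thbs4 4.36 and 4.20, Postn 3.43 and 3.03, Col1a1 2.08 and 2.25. They lay further apart for others: Frem1 4.11 and 2.63, Loxl4 2.10 and 0.997, Cthrc1 3.66 and 2.65, Timp1 2.51 and 3.68, and Nppa 2.07 and 3.70, the Veh value of Nppa holding S19 and S20. Among metabolic genes several had Veh values further from 0: Acaa2 −0.93 and −0.38, Ech1 −0.86 and −0.32, Ces1d −2.0 and −1.08, Acot1 −2.28 and −0.43. The values were nearer each other for Mccc2 (−0.50 and −0.43) and Ppargc1a (−0.89 and −0.75). For Lpl (−0.31 and −0.59) the 29P value was further from 0. None of these differences was past the adjusted threshold, which does not show that the changes were alike.

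**Figure D5:**
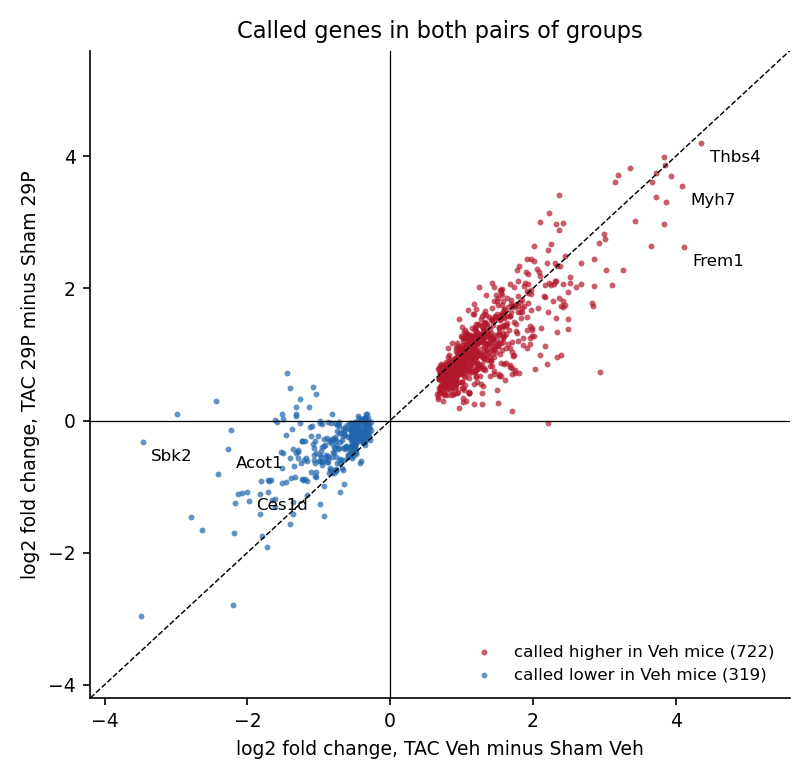
Log2 fold change after TAC in 29P mice against that in Veh mice for the 722 genes called higher (red) and 319 called lower (blue) in Veh mice, with equal changes on the dashed line. On the 29P axis 721 of the red points lie above 0 and 291 of the blue points below it.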

How the data were processed

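Left ventricular RNA from 17 mice was sequenced after poly(A) selection. The authors used STAR 2.3.7 and Partek with the mm10 genome and deposited a table of 21798 genes in CPM with 0.0001 added to each value; their methods name Gencode 25 as annotation, and the counting tool and whether it used strand are not given in the sources used here. The constant was subtracted for levels. Depth was estimated from the smallest step between CPM values. Only 79.0 to 81.6% of low values fell on whole steps (tolerance 0.02 reads), so counts were not recovered and no count model was used. CPM are relative to all reads of a library, so that a smaller share of an abundant group raises every other gene.

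Genes with at least 0.5 CPM in 3 or more libraries (16218) were tested on log2(CPM + 0.1) with limma 3.58.1 (R 4.3.3, 1 mean per group over all 17 libraries, 13 residual degrees of freedom, intensity trend, Benjamini-Hochberg adjustment), and again after division by unweighted TMM factors (trims of 30 and 5%). Calls needed an adjusted p of 0.05 or less on both scales. Summed shares had an exact permutation test (two-sided, 8 libraries), adjusted over 47 lists. The test recovered known changes in data simulated on the CPM scale alone, with independent noise for each gene. Calls on both scales and differences between whole libraries were not simulated, so the recovery does not bear on them. Genes are named by rule: the 12 largest changes each way with no overlap and at least 5 CPM (Gm, Rik and -ps symbols set aside), key genes of the lists, and up to 3 called members and the most abundant member of each list. Symbols and coordinates follow the file and the vM21 annotation, and exon lengths come from that annotation. Lists, members and tests were chosen with earlier results of these data known. Genes named besides these were chosen after their values were seen. Some items that these rules name are not reported here.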

Additional observations from a re-analysis of the deposited data

Results flagged for a closer look

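In 10 of 163 groups of values examined, 1 library of the 5 Sham Veh stood apart, the gap to its neighbour exceeding 0.71 of the range (chance gives about 1 in 20). S19 stood apart for Nppb (gap 0.856 of the range, at 447 CPM against 202 to 226 CPM), for Eci1 (0.728, at 146 CPM against 186 to 204 CPM), for Pfkfb1 (0.714, at 2.95 CPM against 5.99 to 7.94 CPM) and for Lgals4 (0.831, at 15.1 CPM against 29.8 to 34.2 CPM). It was also the low library for the summed share of fatty acid uptake and oxidation (0.808, at 1.35% against 1.66 to 1.74%). S6 was low for Ppara (0.782, at 3.40 CPM against 9.84 to 13.2 CPM) and for the share of fibrillar collagens and their processing (0.724, at 0.0730% against 0.101 to 0.112%). S20 was high for the shares of adipocyte markers (0.850, at 0.00177%), mesothelium markers (0.762, at 0.00133%) and mitochondrial ribosomal proteins (0.793, at 0.357% against 0.319 to 0.327%). No gene was called in opposite directions in the Veh and 29P pairs.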

How the results depend on the processing

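The count of genes higher after TAC (722) was 3827 with CPM alone, 1723 with totals that leave out mitochondrial-encoded genes, 165 without S6, S19 and S20 (a choice made after seeing the data), 2133 at an unadjusted p of 0.05 and 279 with a log2 fold change of at least 1 besides, and between 510 and 762 under the other settings. Leaving out single libraries gave 151 (without S2) to 785 (without S5). The count of lower genes (319) was 924 with TMM alone, 890 with median-of-ratios factors, 519 with totals without mitochondrial-encoded genes, 212 with the 8 Veh libraries fitted alone, 147 without S19 and S20, 206 with the number run as a covariate, 61 without S6, S19 and S20, 566 at an unadjusted p of 0.05 and 88 with the fold limit, and 260 to 321 otherwise. Single libraries left out gave 45 (without S2) to 338 (without S5). Fitting all 17 libraries assumes that the Veh groups vary like the 29P groups. The difference of the change between Veh and 29P mice passed for 0 genes, and for 1 with the deposited constant of 0.0001 alone. No summed share passed after adjustment under the settings tried, of which the one without S19 and S20 (3 against 3, smallest p 0.1) could not. Of 116 named genes 89 were called, and none of these changed direction. Uncalled genes that did were Cpt1b (0.01 with all libraries, −0.32 with TMM, −0.31 with median-of-ratios factors, −0.14 with totals without mitochondrial-encoded genes, −0.018 without S19 and S20, −0.043 with the covariate, −0.19 without S6, S19 and S20, and −0.065 without S19 to 0.084 without S5), Actc1 (−0.16 with TMM and −0.15 with median-of-ratios factors), Myl4 (0.25 without S19 and S20, 0.23 with the covariate, 0.18 without S6, S19 and S20), Mybphl (0.12 without S6, S19 and S20) and Pdk4 (−0.891 without S2 to 0.339 without S12). The causes were not tested. No fit with the replicate number as a block was possible because the groups share no such number; the number run was the covariate above. With 3 against 5 libraries, exact tests cannot go below 0.0179.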
